A study of Mus musculus with 12 samples.

Results

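The 6 left ventricles of mice with transverse aortic constriction (TAC) were divided by the level of one clock gene, Arntl, and the 2 resulting sets of 3 hearts were compared across all expressed genes. The 6 hearts are 6 of the 12 in the series. The sets were chosen by Arntl: a heart entered the high Arntl set when its Arntl reads exceeded 3 CPM (counts per 1e+06 reads of the library total). The high set held TAC control mouse 1 and TAC dantrolene mice 1 and 2, and the low set held TAC control mice 2 and 3 and TAC dantrolene mouse 3. The division was made from the measured RNA and not from a label, so differences between the sets are given as a description with no test, and every gene of these 6 libraries counts as used by the choice. The hour at which each mouse was killed is not given in the sources used here.

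All 12 animals were male C57BL/6 mice, 8 weeks old at surgery and 12 weeks old at sampling, and polyadenylated RNA of the left ventricle was sequenced from each. TAC is a partial ligation of the aortic arch, against which the left ventricle has to pump at higher pressure, and sham surgery left out the ligation. Dantrolene, a blocker of ryanodine receptor calcium release, was given by mouth at 30 mg/kg/day for 4 weeks to 3 TAC and 3 sham mice, and the other 3 of each operation are the controls. The labels give no vehicle for the controls. The study was set up to follow the effect of dantrolene on hypertrophy under pressure overload.

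The circadian clock of mammalian cells is a feedback loop of transcription. ARNTL (BMAL1) pairs with CLOCK or NPAS2 and binds E-box sequences to drive the Per and Cry genes, the REV-ERB genes Nr1d1 and Nr1d2, and output factors such as Dbp, Tef and Hlf. PER and CRY proteins then block ARNTL, while REV-ERB proteins repress Arntl itself through ROR response elements, so that in tissues such as the heart Arntl and Dbp run in opposite phase over the day.

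The sequences below show where these elements lie near 3 clock genes of the comparison, and where a short heat shock motif lies near Hspa1b, which separated the sets widely. They come from RefSeq promoter windows of the GRCm38.p6 build, written 5′ to 3′ on the strand of the gene, and the capitals mark exact matches, counted on both strands. For Arntl, chr7:113207530-113207559 on the plus strand, 30 bases around the ROR element core AGGTCA just after the start site are shown. The Ciart stretch (chr3:95882229-95882478, minus strand) holds 3 copies of the E-box CACGTG, the Bhlhe41 stretch (chr6:145865421-145865670, minus strand) holds 1, and the Hspa1b stretch (chr17:34959239-34959488, minus strand) holds 1 copy of the 2-unit heat shock motif GAANNTTC.
Arntl: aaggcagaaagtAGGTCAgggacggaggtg
Ciart: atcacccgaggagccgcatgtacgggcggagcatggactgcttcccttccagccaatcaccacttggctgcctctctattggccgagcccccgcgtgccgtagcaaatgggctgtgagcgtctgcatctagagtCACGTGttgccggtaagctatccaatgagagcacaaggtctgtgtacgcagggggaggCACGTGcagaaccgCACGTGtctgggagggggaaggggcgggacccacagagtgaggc
Bhlhe41: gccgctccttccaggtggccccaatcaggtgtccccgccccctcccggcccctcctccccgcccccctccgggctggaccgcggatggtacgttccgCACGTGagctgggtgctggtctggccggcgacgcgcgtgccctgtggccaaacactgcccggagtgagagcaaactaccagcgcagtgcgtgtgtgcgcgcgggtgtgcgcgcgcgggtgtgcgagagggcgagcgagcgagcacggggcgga
Hspa1b: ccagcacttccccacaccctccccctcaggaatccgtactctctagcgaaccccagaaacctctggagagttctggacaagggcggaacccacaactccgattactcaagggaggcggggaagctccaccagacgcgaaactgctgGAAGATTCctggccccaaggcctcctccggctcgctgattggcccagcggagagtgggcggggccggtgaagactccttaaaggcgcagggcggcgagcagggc

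CACGTG was present in 7.15% of the 32851 windows of 300 bases, AGGTCA in 16.3% and a 2-unit heat shock motif (GAANNTTC or TTCNNGAA) in 15.1%. The stretches shown were picked from genes that hold a match. Of the 14 clock repressors and outputs listed for this comparison, 11 had a window and 4 held CACGTG (Per1, Ciart, Bhlhe41 and Tef). Among the 7 with a window that were lower in the high set, 2 held it (Ciart and Bhlhe41), and Dbp did not. AGGTCA was held by 3 of 6 clock activators and evening-repressed genes (Arntl, Clock and Nfil3). It was also held by 2 repressors and outputs (Per1 and Nr1d2) and by 4 heat shock genes. Of the 22 heat shock genes, 17 had a window, and 12 held the 2-unit motif, Hspa1a and Hspa1b among them. A longer form has 3 alternating GAA and TTC units, each pair separated by 2 free bases. It was found in 0.603% of all windows and in 4 of those 17 genes (Hsph1, Hspd1, Hspe1 and Chordc1), but in neither Hspa1a nor Hspa1b. The matching windows of Hspd1 and Hspe1 overlap, so these genes are not separate cases. A gene was counted when any of its windows matched, whereas the percentages are shares of windows. Both forms were searched, the 2-unit form first. A match is a string of letters and does not show that a factor binds there.

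Library totals ranged from 25766378 to 38363106 reads. By a principal component of all expressed genes, 4 of the 12 libraries stood apart, and 2 of them, TAC control 1 and TAC dantrolene 1, were in the high set. Mitochondrially encoded genes took 10.5%, 8.02% and 1.71% of the reads in the high set (TAC control 1, TAC dantrolene 1 and 2). They took 15.6%, 22.4% and 16.8% in the low set (TAC control 2 and 3, TAC dantrolene 3) and 7.10% to 13.6% in sham hearts. By this share every low-set heart lay above every high-set and every sham heart. All 10 cardiomyocyte markers were expressed in these ventricles, with Myh6 reaching 18872 CPM. Values below are CPM scaled by the trimmed mean of M values (TMM), and differences are between mean log2(CPM + 0.5) of the high and the low set, with SDs on the same log2 scale and n = 3 a set.

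Arntl (chr7:113207465-113314126 in GRCm38), the gene that made the sets, measured 3.95 CPM of the library total in TAC control 1 and 4.43 and 10.7 in dantrolene-treated TAC mice 1 and 2. It measured 1.30 and 1.80 in untreated TAC mice 2 and 3 and 0.985 in TAC dantrolene 3. The heart just inside the threshold was thus TAC control 1 at 3.95 and the one just outside it TAC control 3 at 1.80. These values rest on 120, 155 and 405 reads in the high set and on 50, 61 and 28 in the low set. In the 6 sham hearts Arntl lay between 0.0776 and 2.68 CPM, so none passed the threshold.

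Dbp (chr7:45705088-45710203), a transcription factor driven by ARNTL through E-boxes, measured 13.1 scaled CPM in TAC control 1, 31.6 in dantrolene mouse 1 and 17.5 in dantrolene mouse 2. It measured 184 in TAC control 2, 180 in control mouse 3 and 139 in dantrolene mouse 3. High-set and low-set values are given in this order of hearts from here on. The sets did not overlap, and the difference was -3.07 on the log2 scale (SD 0.63 in the high and 0.22 in the low set). The difference was -3.74 between the TAC control mice of the sets and -2.54 between the dantrolene mice. Here and below, where the sets do not overlap, both such values must share the sign of the whole difference. Only their sizes carry information. Sham hearts ranged from 112 to 335, so the low set lay inside the sham range and the high set below all 6 sham hearts. Per length, in the deposited FPKM values, Dbp averaged 8.51 in the high and 83.9 in the low set, and Arntl 1.85 and 0.41.

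**Figure D1:**
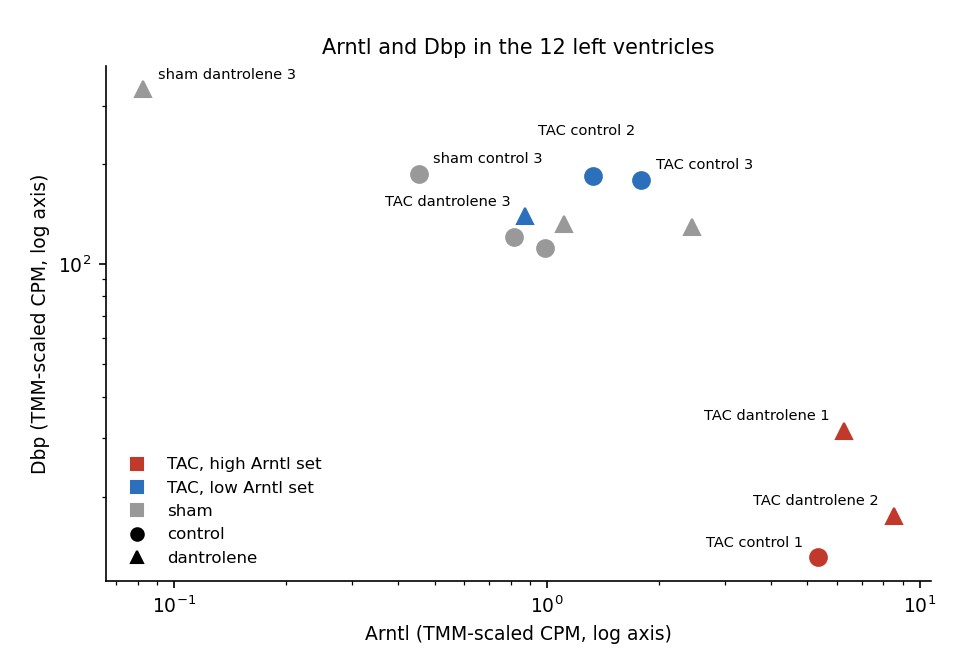
Level of Dbp against Arntl in the 12 left ventricles, both as TMM-scaled CPM on log axes; each point is 1 heart, red for the high and blue for the low Arntl set, gray for sham, circles for control and triangles for dantrolene. The 3 high-set hearts sit at Dbp levels of 13.1 to 31.6, while the low set (139 to 184) lies among the sham hearts.

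Across the genome the sets were separated in many genes. Of 14965 expressed genes, 3874 (25.9%) had no overlap between the 3 values of one set and the 3 of the other: 1729 (11.6%) were higher and 2145 (14.3%) lower in the high set. Counts for gene lists are read against these shares. In bulk tissue, fewer cells of a type and less RNA per cell cannot be told apart.

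Among 14 genes of the negative limb and the E-box outputs, the difference was negative in 14 and the sets did not overlap in 8, all lower in the high set (57.1%, against 14.3% of all genes). The median difference of the list was -1.47, beside -0.02 over all genes tested. Without TAC control 1 and TAC dantrolene 1, which leaves TAC dantrolene 2 as the only high-set heart, the median was -0.71, with 9 negative and 5 positive differences. The 8 genes stayed lower, as they must, since leaving out hearts cannot make separated sets overlap. Of the others 3, Per1 (1.81), Cry2 (0.67) and Bhlhe40 (0.76), were then higher without overlap. Of all genes, 61.5% had no overlap in that comparison, 30.9% being higher and 30.6% lower. Usp2 and Wee1 were also positive there (0.22 and 0.64). The list was drawn up with the behaviour of Arntl and Dbp in these libraries known.

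The REV-ERB genes, nuclear receptors that repress Arntl, were both lower in the high set. Nr1d1 measured 16.9, 22 and 22.3 in the high set against 97.5, 107 and 48.9 in the low set. Nr1d2 measured 2.89, 2.67 and 5.13 against 14.5, 30.3 and 29.8. For both genes every high-set heart lay below every low-set heart and below all 6 sham hearts, with differences of -1.96 and -2.62.

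The period genes, whose proteins inhibit ARNTL, did not move as one. Per2 measured 2.58, 2.19 and 9.55 in the high set and 15.8, 13.2 and 16.9 in the low set, without overlap. Per3 measured 1.73, 2.02 and 4.19 against 6.28, 9.64 and 13.1, also without overlap. Per1, which responds quickly to stress hormones as well as to the clock, measured 20, 8.46 and 111 against 24.8, 26.7 and 46.4. Its highest value of the 6 was in TAC dantrolene 2, a high-set heart, and the sets overlapped. Of the cryptochromes, Cry1 and Cry2 overlapped between the sets, with differences of 0.41 and -0.15.

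Other E-box targets went with Dbp. Ciart, a repressor of ARNTL and CLOCK, measured 1.73, 1.01 and 4.0 in the high set and 7.0, 15.3 and 5.26 in the low set. Bhlhe41, a repressor that competes for E-boxes, measured 7.64, 6.07 and 15.6 against 26, 29.7 and 25.7. Hlf, a factor of the same family as Dbp, measured 4.62, 4.98 and 9.45 against 13, 15 and 24. In all 3 genes TAC dantrolene 2 was the highest heart of the high set, nearest to the low set. The remaining outputs Tef, Bhlhe40, Usp2 and Wee1 overlapped, with differences between -0.61 and -0.41.

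The positive limb and the genes that REV-ERB represses went the other way. Of 6 such genes, 3 were higher in the high set without overlap, Arntl itself being 1 of them, and Rora was lower. Npas2, a partner of ARNTL, measured 2.18, 2.43 and 1.47 against 0.479, 0.764 and 0.752. Nfil3, a repressor of the sites that DBP activates, measured 22.7, 21.9 and 43.2 against 13.6, 5.82 and 10.2. For both genes each high-set heart was above each low-set heart and above all 6 sham hearts. Clock overlapped, with a difference of -0.38, and so did Cry1 (0.41), which is counted in this list.

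**Figure D2:**
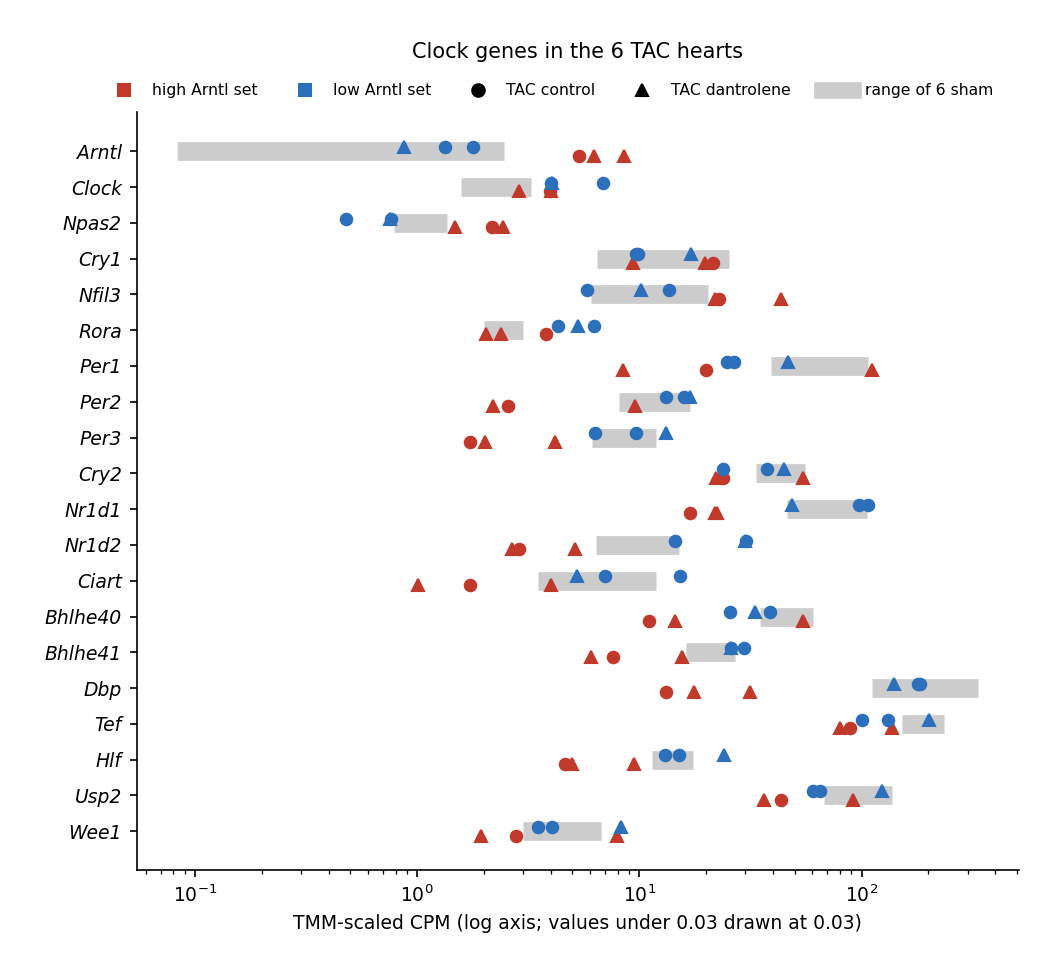
The 20 clock genes in the 6 TAC hearts as TMM-scaled CPM on a log axis; red marks are the high and blue marks the low Arntl set, circles are TAC control and triangles TAC dantrolene, and gray bars span the 6 sham hearts. The high set lies left of the low set for Per2, Per3, Nr1d1, Nr1d2, Ciart, Bhlhe41, Dbp and Hlf, and right of it for Arntl, Npas2 and Nfil3.

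Each set was also placed against the 6 sham hearts. In 7 of the 14 repressors and outputs (Per3, Nr1d1, Nr1d2, Bhlhe41, Dbp, Tef and Hlf) all 3 high-set hearts were below all sham hearts, a position held by 1.72% of all expressed genes. In 0 of the 14 were all 3 low-set hearts above or below the sham range (11.6% and 6.28% of all genes). Of the 6 genes of the positive limb, the high set lay above all sham hearts in 3 (Arntl, Npas2 and Nfil3), as in 2% of all genes. For Arntl this position follows from the rule, since no sham heart passed the threshold. The low set lay outside the sham range in 3 as well, above it for Clock and Rora and below it for Npas2. The sham hearts were not divided by Arntl.

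GC content moved with the sets. The correlation across genes between GC content and the level relative to all libraries (Spearman's rho) was 0.333, 0.211 and 0.169 in the high set and -0.256, -0.633 and -0.540 in the low set. These are correlations over genes, which are not independent replicates. In the lowest of 5 equal classes of genes by GC content, 40.5% were lower and 0.369% higher in the high set, with a median difference of -0.65. In the highest class, 1.24% were lower and 29.2% higher, with a median of 0.49. Without TAC control 1 and TAC dantrolene 1 these medians were -0.60 and 0.33. By length, the median difference ran from 0.38 in the shortest to -0.33 in the longest class, but without those 2 libraries it turned round, from -0.17 to 0.09. The correlation with length was -0.375, -0.428 and 0.388 in the high set and 0.0231, 0.171 and 0.419 in the low set, so the sets overlapped in it.

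**Figure D3:**
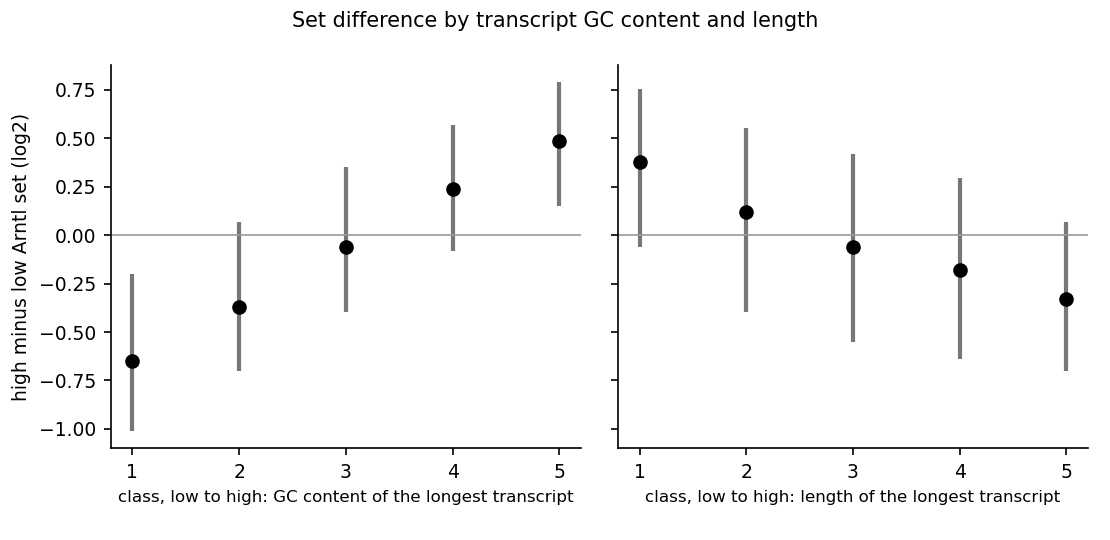
Difference between the sets (high minus low, log2) in 5 equal classes of genes by the GC content (left) and length (right) of the longest annotated transcript; points are medians over genes and bars span the middle 50% of genes. The median goes from -0.65 to 0.49 with rising GC content and, over all 6 hearts, from 0.38 to -0.33 with rising length, a direction that turns round without TAC control 1 and TAC dantrolene 1.

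Of the 8 clock repressors and outputs that were lower in the high set, 5 (Dbp, Nr1d1, Per2, Per3 and Ciart) belong to the 2 GC-rich classes, where lower genes made up 2.55% and 1.24%. Nr1d2 belongs to the GC-poorest class. A smooth trend on GC content and length was subtracted in each library, an alternative added after the data were seen. Of all 14965 genes 18.5% then had no overlap, 1371 being higher and 1394 lower. List counts by this alternative are read against these numbers. Of the 14 repressors and outputs 8 were lower. They were the genes named above, and the median of the list was -1.0. The difference of Dbp was then -3.73 and that of Nr1d2 -1.90, and Rora overlapped between the sets (-0.04).

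Among protein-coding genes without a clone name, the widest separation was that of the inducible HSP70 genes, chaperones made under heat and protein stress. Hspa1b (chr17:34956436-34959238) measured 4.57, 3.04 and 11.1 CPM in the high set. It measured 177, 183 and 151 in the low set, so that each low-set heart was more than 10 times above each high-set heart. The sets differed by -4.84 (SD 0.88 in the high and 0.15 in the low set), by -5.15 between the TAC control mice and by -4.56 between the dantrolene mice. Its neighbour Hspa1a (chr17:34969190-34972156) measured 7.99, 10.5 and 14.7 against 156, 157 and 130. The copies are nearly identical, so reads could be split between them, and their values are not independent. Their GC content was 58.1% and 58.9%, in the class where 1.24% of genes were lower.

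Here the sham hearts sided with the high set. Hspa1b ranged from 2.00 to 11.9 in the 6 sham hearts and Hspa1a from 4.27 to 13.1. Across the list of 22 heat shock proteins and cochaperones, 11 had all 3 low-set hearts above all sham hearts (11.6% of all genes did), and 0 had the high set wholly outside the sham range.

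Between the sets, 8 of the 22 were lower and 2 higher in the high set without overlap (14.3% and 11.6% of all genes were). The median difference was -0.67. The HSP90 gene Hsp90aa1 measured 16.5, 11.3 and 11.5 against 58.2, 67.3 and 32.3. The HSP40 cochaperone Dnajb4 measured 10.3, 14.0 and 17.8 against 33.4, 39.2 and 33.4. Both were lower in every high-set heart. The 2 higher genes were Hsf1, the transcription factor that induces the heat shock genes, at 53.2, 47.3 and 35.8 against 28.7, 21.1 and 29.3, and Fkbp4. Without TAC control 1 and TAC dantrolene 1 the median difference was -0.35. Without TAC dantrolene 2, 18 of the 22 had no overlap, but so did 62.7% of all genes. With the trend on GC content and length subtracted 7 were lower and 1 higher, and Fkbp4 overlapped. The 7 were not all among the 8 above. Dnaja1, Hspa4l and Ahsa1, lower before, came to overlap, and Dnajb1 and Cryab, which had overlapped, were lower.

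Among protein-coding genes without a clone name, the widest separation upward was that of Upk3b (chr5:136038496-136046487), a uroplakin of the mesothelium that covers the heart. It measured 15.5, 9.11 and 9.47 in the high set and 0.985, 0.529 and 0.470 in the low set, a difference of 3.34 (SD 0.41 and 0.33). The difference was 3.70 between TAC control mice and 3.34 between dantrolene mice. Of 7 measured markers of epicardium and mesothelium, 4 were higher without overlap (Upk3b, Msln, Krt19 and Upk1b), where 11.6% of all genes were.

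Mesothelin (Msln) measured 12.3, 3.44 and 6.88 against 1.33, 0.558 and 0.470. The keratin Krt19 measured 2.89, 2.39 and 3.47 against 0.639, 0.235 and 0.376. In these 4 genes all 3 high-set hearts were also above all 6 sham hearts, which 2% of all genes were. Wt1, a transcription factor of the epicardium, overlapped between the sets (2.18, 1.46 and 5.70 against 2.45, 2.97 and 2.13), as did Krt8 and Krt18. Of the 7 differences 6 were positive and 1 was negative. With the trend on GC content and length subtracted, 4 of the 7 were higher and 1, Krt18 (-1.43), was lower without overlap. The summed level of the list was 17.9 to 37.9 CPM in the high set, 4.76 to 8.36 in the low set and 2.20 to 11.1 in sham hearts.

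**Figure D4:**
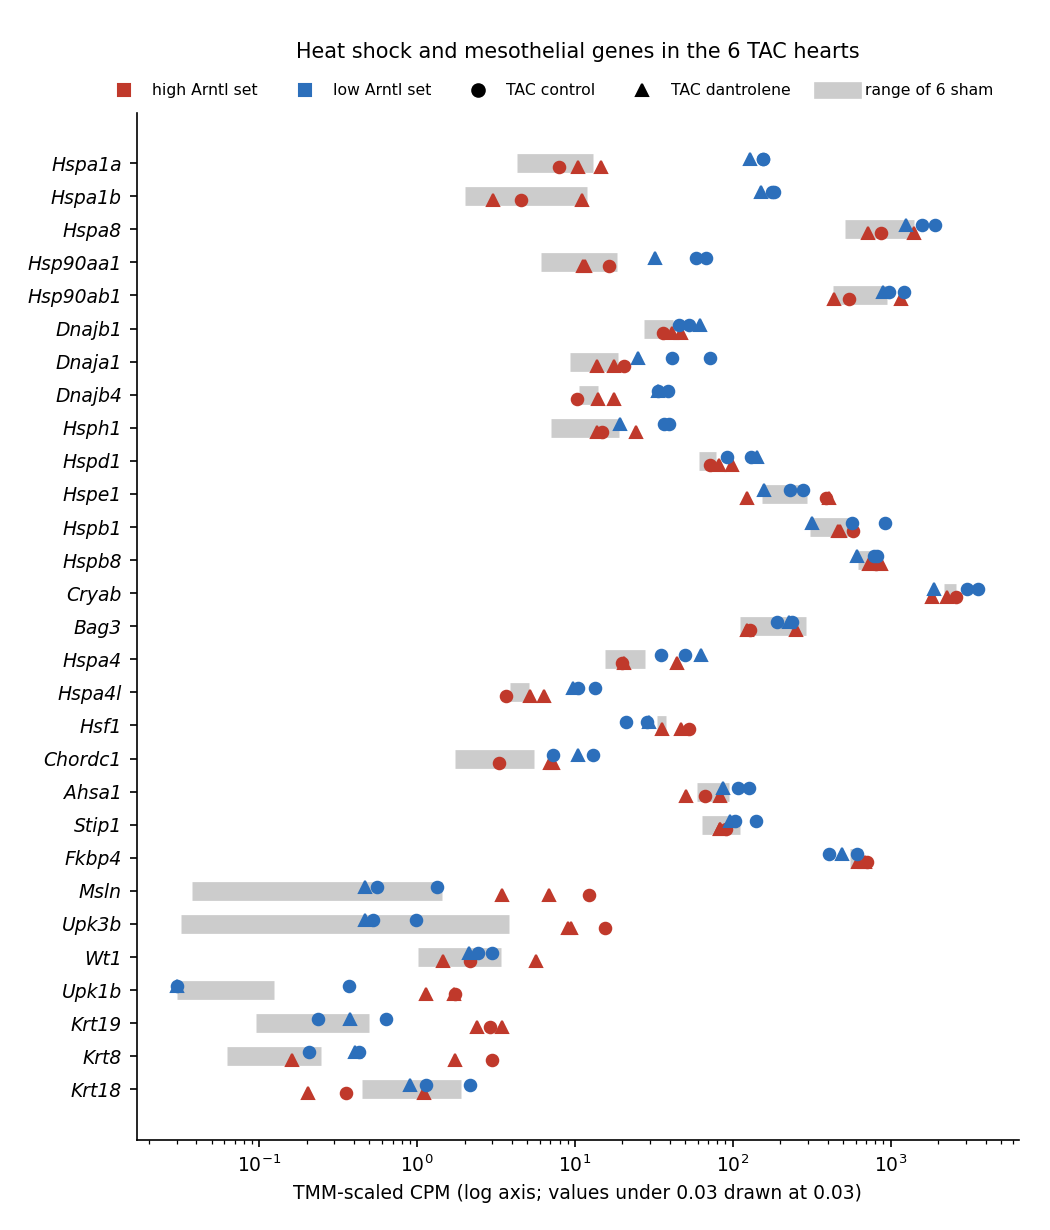
The 22 heat shock genes and 7 mesothelial markers in the 6 TAC hearts, as TMM-scaled CPM on a log axis; red marks are the high and blue marks the low Arntl set, circles are TAC control and triangles TAC dantrolene, and gray bars span the 6 sham hearts. Hspa1a and Hspa1b lie above the sham range in the low set, and Msln, Upk3b, Upk1b and Krt19 lie above it in the high set.

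Marker lists of other cells were mixed. Without overlap were 0 of 8 endothelial, 0 of 5 erythroid and 0 of 6 Schwann cell and neuron markers, against 25.9% of all genes. The same held for 1 of 9 macrophage, 1 of 7 T and NK cell and 2 of 8 fibroblast markers. Of 4 measured neutrophil markers 2 were higher without overlap (11.6% of all genes were), with at most 200 reads in a TAC heart. That list summed to 4.4 to 18.7 CPM in the high and 0.908 to 3.09 in the low set, and to 2.76 to 73.7 in sham hearts. The atrial list summed to 13.1 to 22.7 against 2.25 to 3.70, but it contains Upk3b. Its atrial light chain Myl7 measured 0.932, 1.90 and 0.799 against 0.133, 0.0882 and 0.0626. The part of these cells, of GC content and of the libraries that stood apart in the clock and heat shock differences was not tested.

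Other genes that separated the sets widely were mixed in kind. Among those higher in the high set were Id1, an inhibitor of bHLH factors, at 208, 219 and 213 against 78.1, 84.1 and 36.3, and Spon2, a secreted matrix protein, at 23.3, 34.0 and 10.1 against 3.54, 2.35 and 1.97. The rest of the 12 with the largest gap were Nkain4, Kcng4, Klhdc8a, Slc41a3, Relt, Colq and Chst4, besides Upk3b, Arntl and Krt19. Lower in the high set were Tecrl, a gene of cardiac rhythm, at 7.33, 6.68 and 7.66 against 28.4, 35.2 and 25.6, and Ppp1r3a, a glycogen-targeting subunit of protein phosphatase 1, at 3.51, 3.52 and 3.07 against 11.2, 17.8 and 15.8. The rest of the 12 were Lpar6, Zfp322a, Atg10, Gpcpd1, Uchl3 and Cops2, with a GC content of 36.4% to 40.3%, besides Hspa1a, Hspa1b, Dbp and Nr1d2. Tecrl and Ppp1r3a have a GC content of 36.8% and 36.7%, in the class where 40.5% of genes were lower. With the trend on GC content and length subtracted their differences went from -1.96 to -1.24 and from -1.97 to -1.09.

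Of 23 genes of the heart muscle that are described under clock control, 5 (21.7%) had no overlap, against 25.9% of all genes. With the trend on GC content and length subtracted, 2 were higher and 5 lower (30.4%, against 18.5% of all genes). Kcnip2, a subunit of the transient outward potassium channel, measured 305, 329 and 269 against 169, 113 and 214. Kcnk3, a background potassium channel, measured 425, 371 and 412 against 201, 164 and 281. Nampt, the enzyme of NAD salvage, measured 21.9, 28.3 and 27.1 against 46.2, 91.2 and 94.8. Each of these 3 genes was separated between the sets, the channels upward and Nampt downward. Of 24 cardiac ion channel genes 4 were higher and 3 lower, and of 18 calcium handling genes 2 were higher (Jph2 and Ppp1r1a) and 1 was lower (Trdn). Among all genes 11.6% were higher and 14.3% lower. With the trend on GC content and length subtracted, 3 ion channel genes were higher and 1 lower, and 2 calcium handling genes were higher and 2 lower.

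In the hypertrophy list 4 of 15 genes were higher and 2 lower (11.6% and 14.3% of all genes were). Ankrd1, a stretch-responsive protein of the sarcomere, measured 104, 111 and 135 in the high set and 560, 876 and 216 in the low set. Xirp2, an actin-binding protein of the intercalated disc, measured 17.5, 27.2 and 19.0 against 93.5, 120 and 39.1. Rcan1, an inhibitor of calcineurin, measured 195, 197 and 218 against 99.8, 71.2 and 71.5. The natriuretic peptide genes Nppa and Nppb overlapped between the sets. In the low set TAC dantrolene 3 had the lowest Ankrd1 and Xirp2. With the trend on GC content and length subtracted Xirp2 overlapped (-1.07), as did Cited4 and Gata4, which had been higher, and 2 genes of the list were higher and 3 lower.

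Of 24 genes of activated fibroblasts 4 were lower and 0 higher (16.7%, against 14.3% lower over all genes). Postn, a matrix protein of injured heart, measured 3.29, 1.30 and 2.12 against 21.2, 32.9 and 4.92. The TAC control hearts of the low set were the highest, and TAC dantrolene 3 was closer to the high set. Postn overlapped between the sets (-1.73) with the trend on GC content and length subtracted, which left 3 of the 24 lower. Of 22 immediate early genes 2 were lower and 2 higher. Egr1, a growth-factor-induced transcription factor, measured 17.2, 20.4 and 140 against 244, 237 and 282, and here too TAC dantrolene 2 was nearest to the low set. Of 13 mitochondrially encoded genes 5 were lower, with a median difference of -1.69. Without TAC control 1 and TAC dantrolene 1 that median was -4.47, from TAC dantrolene 2 alone. Of 26 interferon-stimulated genes 5 were lower, of 23 genes of the unfolded protein response 6 were lower and 1 higher, and of 48 nuclear genes of oxidative phosphorylation 1 was lower and 7 were higher. Over all genes 14.3% were lower and 11.6% higher. With the trend subtracted, 2 genes of the unfolded protein response were lower and 2 higher, as Hsp90b1, Pdia3, Pdia6, Canx and Dnajc3 came to overlap. By the same alternative 3 interferon-stimulated genes were lower, 4 immediate early genes were lower and 1 was higher, and 5 mitochondrially encoded genes were lower and 3 higher. Nuclear genes of oxidative phosphorylation were then lower in 2 and higher in 10.

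**Figure D5:**
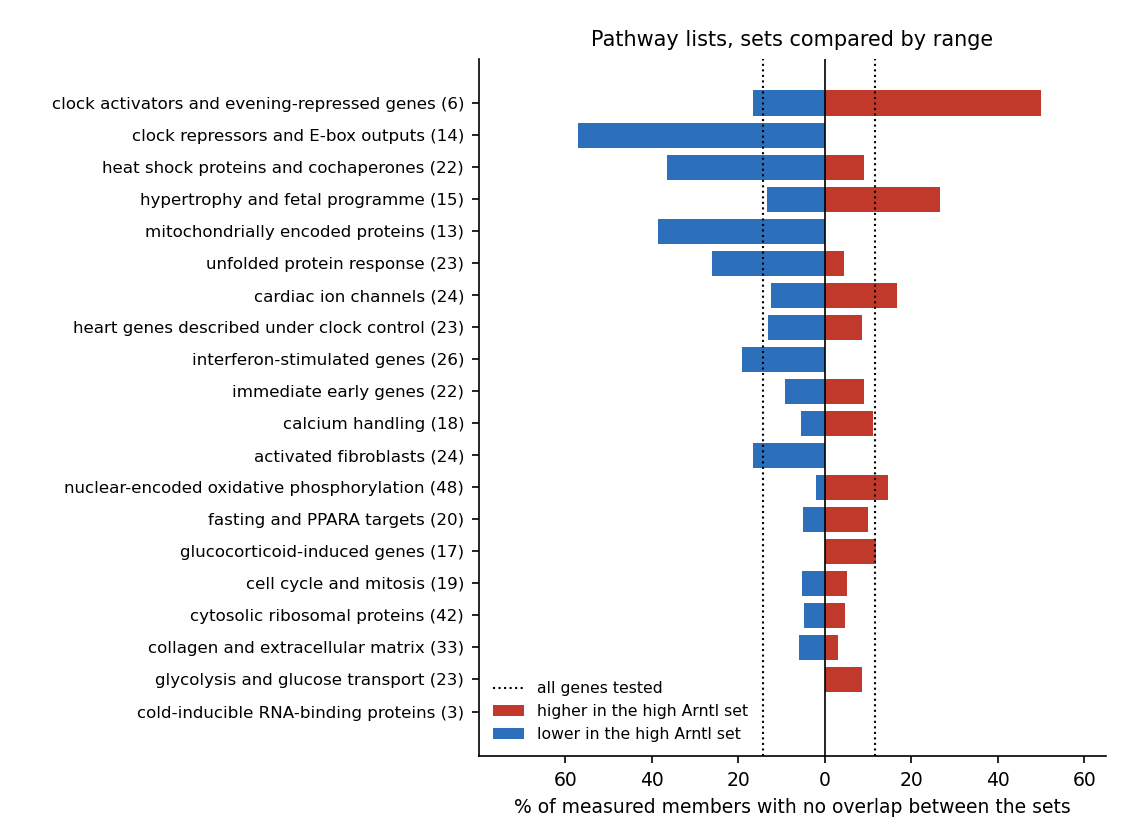
Share of the measured members of each of 20 gene lists whose values did not overlap between the sets, higher in the high Arntl set to the right in red and lower to the left in blue; the number of measured members is in brackets and dotted lines mark the shares among all genes tested (11.6% and 14.3%). The bar of the clock repressors and E-box outputs reaches 57.1% on the left.

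Whether the same genes follow Arntl was tested in the 6 sham hearts, which the rule did not use. The slope of each gene on log2(CPM + 0.5) of Arntl was fitted with drug treatment as a term, in edgeR's quasi-likelihood test with Benjamini-Hochberg adjustment. At these low Arntl levels the offset makes 1 unit of this scale more than a doubling of Arntl. Of 14964 genes 1859 (12.4%) passed an adjusted p of 0.05, 818 with a positive slope (5.47%) and 1041 with a negative one (6.96%). Clock genes among them were Dbp, Cry1 and Nr1d2. Dbp had a negative slope, -0.65 per unit of that scale (SE 0.13, adjusted p = 0.0269), the direction it had between the TAC sets. Cry1 had a slope of -0.91 (SE 0.15, adjusted p = 0.0269), opposite in sign to its TAC difference of 0.41, in which the sets overlapped. Nr1d2 had a positive slope of 0.52 (SE 0.14, adjusted p = 0.0435), opposite to its direction in TAC, a difference that was not itself tested.

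The remaining repressors and outputs did not pass in sham hearts, and the median slope of the list was 0.19. Nr1d1 had a slope of 0.21 and Per3 of 0.20. Of the 22 heat shock genes 5 had a positive slope and 0 a negative one, Hsp90aa1 and Hsph1 among them (0.66 and 0.64), and Hspa1b did not pass (adjusted p = 0.108). Upk3b had a slope of -1.64 (SE 0.35, adjusted p = 0.0292). Its sign, and those of the heat shock genes, were opposite to the direction between the TAC sets, and that difference was not itself tested either.

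The genes with the smallest p were Ifitm1, an interferon-induced membrane protein (slope -1.15, SE 0.11, adjusted p = 0.0134), with Tspan4, Gstt2, H2-T22 and Ifi35 on the negative side, and Pcnx, Ednra, Sh3pxd2a, Ppp1r3b and RP23-253G12.9 on the positive side.

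The sham slope rests on few hearts. Arntl was counted by 2 reads in sham dantrolene 3, by 12 in sham control 3 and by 30 to 79 in the other 4 sham hearts, and these first 2 libraries also stood apart by the principal component. Without sham dantrolene 3, 0 genes passed and the slope of Dbp was -0.47 (adjusted p = 0.964). Without either sham control 1 or sham control 3, 0 genes passed as well, with Dbp at -0.65 and -0.61. Same-numbered sham mice deviated together, and with the replicate number as a block 130 genes passed and Dbp did not (-0.39, adjusted p = 0.827).

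The sets are spread unequally over the drug, 1 of 3 control and 2 of 3 dantrolene hearts being in the high set. Dantrolene was therefore compared with control in TAC hearts with the set as a term. The set was taken from the RNA of the same 6 libraries, so this fit is not independent of the choice of the sets. In edgeR's quasi-likelihood test 0 of 14965 genes (0%) passed an adjusted p of 0.05, and 466 had an unadjusted p under 0.05. DESeq2 called 8 genes.

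Acta1, skeletal alpha actin of the fetal programme, measured 887, 230 and 312 CPM in the high set (TAC control 1, TAC dantrolene 1 and 2) and 3708, 2614 and 146 in the low set (TAC control 2 and 3, TAC dantrolene 3). In both sets the dantrolene hearts lay below the control hearts, with a drug difference of -3.07 (SE 0.76). Ccl5, a chemokine, differed by -3.54 (SE 0.73) and Klhl38, a muscle Kelch protein, by 2.02 (SE 0.43). The other 3 genes with the smallest p were mt-Co3 (-2.37), Cacng6 (2.15) and Sorcs2 (1.53). None of these passed after adjustment (smallest adjusted p = 0.938). For Postn the drug difference was -1.72 (SE 0.50) with the set term and -2.78 without it.

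Leaving out 1 library moved this count: it was 755 without TAC dantrolene 1, 28 without TAC dantrolene 2, and 187 without both TAC control 1 and TAC dantrolene 1. With the replicate number as a block beside the drug and the set, 16 genes passed.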

How the data were processed

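The deposited table of read counts holds whole reads per gene for 1 left ventricle per column, made by the authors from paired-end reads of 150 nt. Per the submitters' processing notes, GRCm38 was the build, and bcl2fastq, TopHat2 and edgeR were used, with no versions. The authors' deposited FPKM table was used only for levels of Dbp and Arntl per length. Library preparation was directional per the labels' protocols. Counter, annotation release and strandedness of counting are not given in these sources.

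The members of the sets and the gene lists were chosen with earlier results of these data known; 2 genes of these lists are not reported here and were left out of the list counts. CPM values used TMM factors of all 12 libraries (edgeR 4.0.16, R 4.3.3), and 14965 of 25319 genes passed edgeR's filter (minimum count 10, total 15). The genes that did not pass held 0.0418% of the reads. The sets were compared by range, with an offset of 0.5 in log2(CPM + 0.5) and no test. The sham slope and the drug difference used edgeR's quasi-likelihood test, checked on simulated counts, with 3 residual degrees of freedom each and Benjamini-Hochberg adjusted p-values; DESeq2 1.42.0 was an alternative. The mice are separate animals per the labels. Same-numbered mice of the drug groups deviated together in sham (r = 0.549, 0.492 and 0.757) and in TAC hearts (0.639, 0.380 and 0.694). In sham so did control 1 with dantrolene 2 (0.393) and control 2 with dantrolene 1 (0.471), and the other unmatched values were negative. In TAC hearts unmatched values ran from -0.637 to 0.258. The main fits have no term for pairs, and the replicate number entered as a block only in alternative fits.

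GC content and length are those of the longest GENCODE vM21 transcript (14911 of 14965 genes matched, 99.6%). The trend subtraction was added after the data were seen. Genes were named by a rule: the 12 genes a direction with the widest gap between the sets, all clock genes, up to 4 genes of each other list, up to 5 genes a direction by p in the sham slope, up to 3 where none passed in the drug test, and markers of hypertrophy. The gap was ranked only among protein-coding genes whose symbol is not a clone name (Gm plus digits, or Rik at the end). In other lists, genes overlapping between the sets (Wt1, Krt8, Krt18) and the called sham genes were named beyond it, after their values were seen.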

Additional observations from a re-analysis of the deposited data

How the results depend on the processing

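In the high Arntl set against low Arntl set comparison, the number of genes without overlap stayed within 1.5 times of 3874 under library totals, DESeq2's size factors, no filter on low counts, an offset of 2 and without mitochondrially encoded genes (3152 to 4451). Fewer hearts give less room to overlap: leaving out 1 TAC heart at a time gave 4180 to 9382 genes in all, 1907 to 4392 higher and 2273 to 4990 lower, the most without TAC dantrolene 2. Without TAC control 1 and TAC dantrolene 1 there were 9205 (4620 higher, 4585 lower), and without TAC dantrolene 2 and TAC control 3, added after the data were seen, 10088 (4680 higher, 5408 lower). With the trend on GC content and length subtracted, 1394 genes were lower.

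For the slope on Arntl in sham hearts, DESeq2 called 3272 genes, a fit with no drug term 763, the trend on GC content and length as an offset 290, and Dbp with its sign turned as the covariate 5154. With the replicate block, which pairs same-numbered mice, 130 genes passed. Without sham control 3 and sham dantrolene 3 the count was 0, and leaving out 1 sham heart at a time it ran from 0 to 3038.

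For dantrolene in TAC hearts with the set as a term, DESeq2 and the fit with no filter on low counts each called 8 genes. The replicate block beside drug and set called 16 and the block in place of the set 0. Without TAC control 1 and TAC dantrolene 1 the count was 187, and leaving out 1 heart at a time it ran from 0 to 755. Myh7 changed sign from 0.17 to -1.18 with the block beside the set, -0.31 with the block in its place, -0.0305 with the trend as an offset and -0.72 without TAC control 1 and TAC dantrolene 1. Leaving out 1 heart at a time, Myh7 ran from -0.89 (without TAC dantrolene 2) to 1.06 and was -0.72 without TAC control 1. Nppb ran from -2.92 to 0.11 and Col1a1 from -1.33 to 0.43, both positive only without TAC dantrolene 3. The cause of these changes was not tested. Precision is limited by 3 hearts a set and, for Arntl in sham hearts, by 2 to 79 reads.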
